A study of Zea mays with 6 samples.

Results

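The 5 genes described here are Zm00001d048847, Zm00001d048848, Zm00001d048849, Zm00001d048851 and Zm00001d048852, 5 of the 33051 gene IDs listed in the tables. They are grouped as a tandem cluster of alpha-zein genes. The genes were chosen by their nearby ID numbers, by their very high values and by the values of replicate 3, which set Zm00001d048851 and Zm00001d048852 apart in earlier results of these data. The files and the RefSeq gene table used here do not pair these IDs with names or coordinates. The alpha-zein name and the tandem arrangement could therefore not be checked, and no sequence is shown. ID numbers that follow each other are taken here to mean neighbouring genes. All 5 passed the filter on low values.

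Alpha-zeins are prolamins, the storage proteins that fill protein bodies in the starchy endosperm of the maize kernel. They are poor in lysine and rich in glutamine, leucine and proline, and they serve the seedling as a store of nitrogen and carbon. Their genes lie in arrays of closely related copies, some intact and some with early stop codons, and short reads from such copies can match more than 1 of them.

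The libraries came from whole kernels of the maize inbred line KN5585, harvested 10 days after pollination. 3 libraries labelled T came from 1 line transformed with the sucrose synthase gene ZmSUS1, and 3 libraries labelled CK came from its non-transgenic negative control. Both groups carry the KN5585 background. Which promoter drives the transgene was not stated in the labels. The libraries of a group are described as biological replicates, and nothing says whether each came from its own plant. The p-values therefore measure the spread between these libraries.

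The values are FPKM, fragment counts divided by gene length and by the mapped total of the library. Summed FPKM per library ranged from 1359751 to 1378937. The number of fragments is not given. Low genes that move in steps of single fragments put the relative depth of the libraries between 0.998 and 1.02 times that of CK replicate 1, with only ratios near 1 searched. SUS1 (Zm00001d047253) stood at 215 ± 5.58 FPKM in the libraries labelled CK and at 155 ± 5.37 FPKM in those labelled T (SD, n = 3 each). It was lower in the labelled overexpressor, so every direction below holds for the libraries as labelled. Replicate 3 of both groups stood apart from replicates 1 and 2, and comparisons of the groups are given with and without it. No marker gene of kernel tissues could be named from the IDs, so the tissue label was not checked. In whole kernels, fewer cells of a type and less RNA per cell cannot be told apart.

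The 5 genes were among the 20 most abundant of all genes in the mean over the 6 libraries, at rank 7 for Zm00001d048851, 10 for Zm00001d048849, 14 for Zm00001d048848, 16 for Zm00001d048852 and 19 for Zm00001d048847. Together they made up 10.5 ± 0.194% of all FPKM in the libraries labelled CK and 10.2 ± 0.265% in those labelled T (SD, n = 3 each). None of the 5 had values identical to those of another gene. Their ID neighbours were scarce by comparison. Of the 14 IDs listed from Zm00001d048840 to Zm00001d048860, the 9 outside the cluster had means from 0.0783 to 16.6 FPKM, and the lowest cluster gene stood 695 times above the highest of them.

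Zm00001d048851 had the highest mean of the cluster and the widest range. It stood at 35005, 35653 and 61930.0 FPKM in CK replicates 1 to 3, and at 31993, 34476 and 60908 FPKM in T replicates 1 to 3. Replicate 3 was far above both other libraries in each group, and the 2 groups overlapped.

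Zm00001d048849 was the highest copy in replicates 1 and 2 of both groups and the second highest in replicate 3. It stood at 41628, 41349 and 34459 FPKM in the libraries labelled CK and at 39124, 40776 and 33210.2 FPKM in those labelled T. Replicate 3 was the lowest library of each group.

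Zm00001d048848 was the third copy by level in all 6 libraries. It stood at 30288, 29966 and 24531 FPKM in the libraries labelled CK and at 30353, 31369.5 and 21533 FPKM in those labelled T. T replicate 3 was the lowest of all 6, and CK replicate 3 the next.

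Zm00001d048852 stood at 22034, 22798 and 13392 FPKM in the libraries labelled CK and at 23135, 22634 and 14734 FPKM in those labelled T. The 4 libraries of replicates 1 and 2 lay close together, and both replicate 3 libraries lay far below them. Zm00001d048847 was the lowest copy in all 6 libraries and varied least, from 10615 FPKM in T replicate 3 to 12098 FPKM in T replicate 2.

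**Figure D1:**
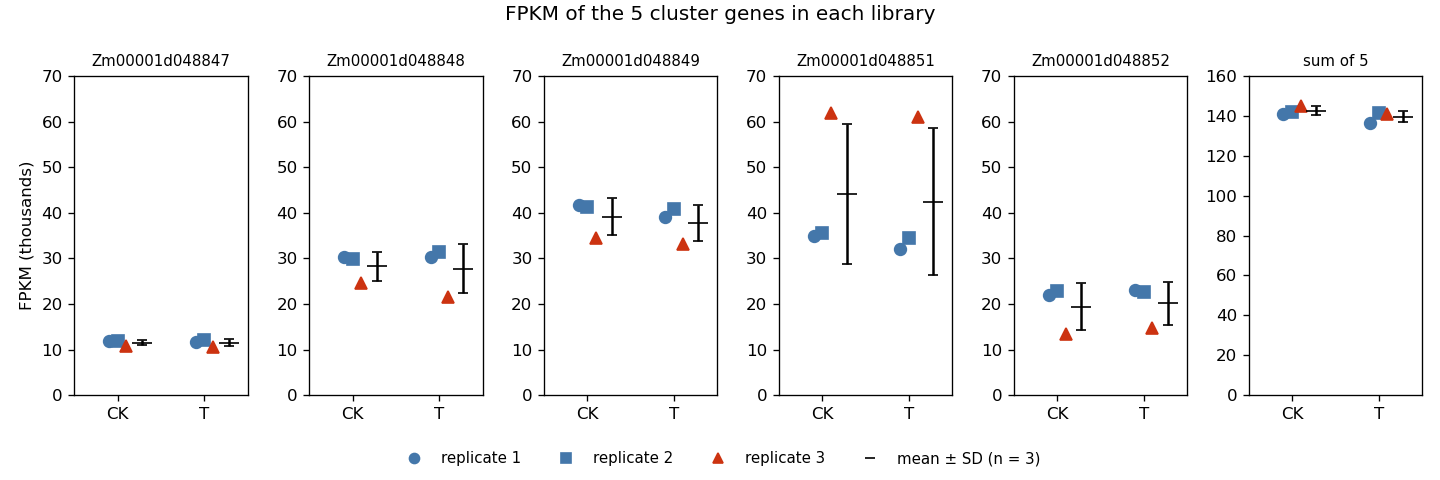
FPKM (vertical axes from 0, in units of 1000) of each cluster gene and of their sum in the libraries labelled CK and T; points are libraries, with replicate 3 as red triangles, and bars give the mean ± SD (n = 3). Replicate 3 is at 61930.0 and 60908 FPKM for Zm00001d048851 and below replicates 1 and 2 for the other 4 genes, while the sums lie between 136344 and 145119 FPKM.

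The first comparison asked whether the cluster differed between the kernels labelled transgenic and their control. None of the 5 genes passed the test. The limma fit on log2(FPKM + 1) across 20514 genes called 0 of the 5 at an adjusted p of 0.05, against 19.0% of all genes tested. At an unadjusted p under 0.05 the limma fit also had 0 of the 5, against 34.2% of all genes. With the replicate number as a block it had 2 of the 5, and under each of 3 rescalings 1 of the 5. The share of all genes at that p was not computed in those settings. These last counts therefore have no background and are not read as a change in the members. The libraries of the 2 groups overlapped in all 5 genes, while they did not overlap in 38.9% of all genes. Replicate 3 widened the spread within both groups, as the standard deviations show.

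For Zm00001d048851 the means were 44196 ± 15361 FPKM (labelled CK) and 42459 ± 16025 FPKM (labelled T; SD, n = 3 each). Its log2 fold change was -0.07, with a 95% interval from -0.72 to 0.59 (limma, adjusted p = 0.892). Zm00001d048852 had 19408 ± 5224 and 20168 ± 4712 FPKM, a log2 fold change of 0.07 with an interval from -0.47 to 0.61 (limma, adjusted p = 0.871). Both intervals reach past a 1.5-fold difference in at least 1 direction.

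The other 3 copies were measured more tightly. Zm00001d048847 had 11515 ± 621 and 11484 ± 774 FPKM, a log2 fold change of -0.0047 with an interval from -0.17 to 0.16 (limma, adjusted p = 0.973). Zm00001d048848 had 28262 ± 3235 and 27752 ± 5409 FPKM, with an interval from -0.39 to 0.31 (limma, adjusted p = 0.880). Zm00001d048849 had 39145 ± 4061 and 37704 ± 3978 FPKM, with an interval from -0.30 to 0.19 (limma, adjusted p = 0.757). The median log2 fold change of the 5 was -0.04, beside -0.13 over all genes tested.

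With the replicate number as a block, which takes out the shared deviation of replicate 3, the intervals shrank and the calls did not change. The limma log2 fold change of Zm00001d048851 was then -0.07 with an interval from -0.13 to -0.0074 (adjusted p = 0.102), and that of Zm00001d048849 was -0.05 with an interval from -0.10 to -0.0040 (adjusted p = 0.113). Both were lower in the library labelled T at each of the 3 replicate numbers. Within replicate numbers 1, 2 and 3, Zm00001d048851 differed by -8.60%, -3.30% and -1.65%, and Zm00001d048849 by -6.01%, -1.39% and -3.62%. Zm00001d048848 went the other way in replicate 3 than in replicates 1 and 2, at 0.214%, 4.68% and -12.2%. With replicate 3 left out of both groups, limma again called 0 of the 5, with Zm00001d048851 at a log2 fold change of -0.09 (adjusted p = 0.219).

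The direction of these small differences depended on the scale. Median-ratio rescaling of FPKM put all 5 genes higher in the libraries labelled T, with limma log2 fold changes from 0.08 to 0.21, and quantile normalization put all 5 lower, from -0.24 to -0.07. In neither did a gene pass, at adjusted p from 0.171 to 0.892 and from 0.146 to 0.816. On the sum without the 20 most abundant genes, Zm00001d048847 came closest to the threshold (log2 fold change 0.16, limma adjusted p = 0.0767).

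**Figure D2:**
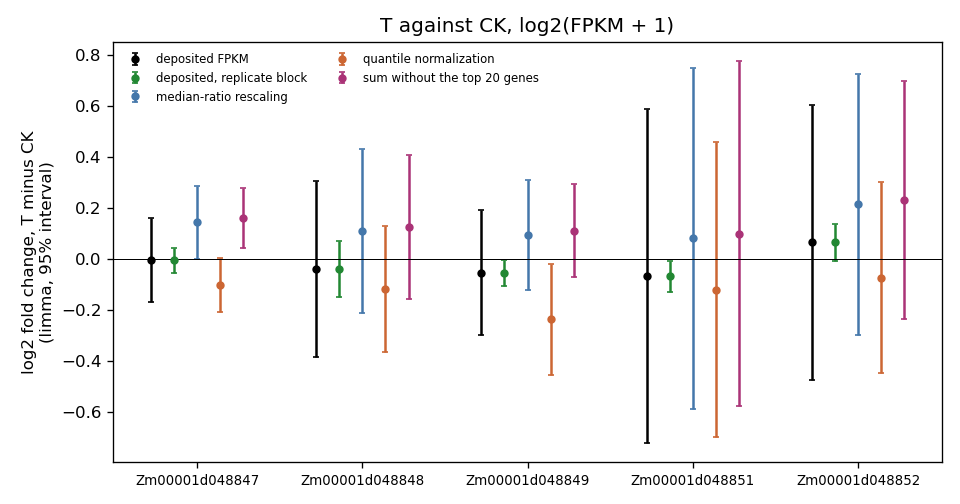
Log2 fold change, libraries labelled T minus libraries labelled CK, with its 95% interval from limma (vertical axis) for each of the 5 cluster genes, on deposited FPKM without and with the replicate number as a block and after 3 rescalings. Median-ratio rescaling places all 5 above 0 and quantile normalization all 5 below 0, and the block narrows the interval of Zm00001d048851 to -0.13 to -0.0074.

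Over the 3 replicates of each group, the cluster sum varied less, relative to its mean, than each of the 5 genes. This did not hold between replicates 1 and 2 alone. There the sum differed by a factor of 1.0071 in CK, where the 5 genes differed by 1.0067 to 1.035. In T it differed by 1.037, where the 5 genes differed by 1.022 to 1.078. The 5 genes summed to 140729, 141732 and 145119 FPKM in the libraries labelled CK, and to 136344, 141354 and 141001 FPKM in those labelled T. The groups overlapped. The mean of the libraries labelled T differed by -2.08% (142527 ± 2300.2 against 139566 ± 2796 FPKM; SD, n = 3 each), and the 2-sided exact permutation test gave p = 0.3, where 0.1 is the smallest it can give. The difference was -3.12%, -0.267% and -2.84% at replicate numbers 1, 2 and 3, and -1.69% for replicates 1 and 2 alone. The direction depended on the scale. The log2 ratio of the sums was -0.03 on deposited FPKM, 0.12 after median-ratio rescaling (exact permutation p = 0.1) and -0.13 after quantile normalization (exact permutation p = 0.1).

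A ratio within a library does not depend on a rescaling by a single factor per library, but quantile normalization can change it. The ratio that follows was taken on deposited FPKM only. A second run of abundant IDs, from Zm00001d048806 to Zm00001d048817, has 10 listed genes, 9 of them with 1000 FPKM or more on average. The cluster stood at 0.787, 0.760 and 0.729 of the summed FPKM of that run in the libraries labelled CK, and at 0.652, 0.670 and 0.633 in those labelled T. The groups did not overlap. The ratio differed by -14.1% in the libraries labelled T (0.759 ± 0.0292 against 0.652 ± 0.0186; SD, n = 3 each), with an exact permutation p of 0.1, the smallest possible. It was lower at each replicate number, differing by -17.1%, -11.8% and -13.2%, and was 0.774 against 0.661 with replicate 3 left out. On deposited FPKM the second run summed to 188136 ± 10276 and 214240 ± 7463 FPKM (SD, n = 3 each; exact permutation p = 0.1), so the cluster took a smaller part of the FPKM of both runs in the libraries labelled T. The second run differed by 13.9%, and its 9 abundant genes had ratios of T to CK from 0.894 (Zm00001d048806) to 1.49 (Zm00001d048807). The other genes among the 20 most abundant, 7 of them in the second run, summed to 649674 ± 12574 and 721841 ± 2605 FPKM (SD, n = 3 each). These sums did not overlap either.

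Zm00001d048851 held 30.9 ± 10.2% of the cluster sum in the libraries labelled CK and 30.4 ± 11.1% in those labelled T (SD, n = 3 each; exact permutation p = 0.7). For the other 4 shares the exact permutation p lay between 0.5 and 1. All 5 shares overlapped between the groups over the 3 replicates, and the 5 shares of a library sum to 100% and are not independent. Within replicate numbers, the share of Zm00001d048847 was higher in the library labelled T in 3 of 3 pairs and that of Zm00001d048849 lower in 3 of 3 (exact sign-flip p = 0.25 each, the smallest possible). With replicate 3 left out of both groups, the shares of Zm00001d048847 and Zm00001d048848 were higher in the libraries labelled T by 0.18 and 0.89 percentage points, and those of Zm00001d048849 and Zm00001d048851 differed by -0.61 and -1.09 points. These 4 shares then did not overlap between the groups (exact permutation p = 0.333 each, the smallest that 2 against 2 libraries can give). No share over all genes was computed for 2 against 2 libraries, so this count is not read as a shift in composition. The share of Zm00001d048852 differed by 0.62 points and overlapped (exact permutation p = 0.667). For Zm00001d048848 the difference over all 3 replicates was 0.052 points.

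The second comparison set replicate 3 against replicates 1 and 2 within each group. Each group has 1 such library, and these values helped to choose the genes, so they are a description without a test. Zm00001d048851 in replicate 3 stood at 1.75 times the mean of replicates 1 and 2 in the libraries labelled CK and at 1.83 times in those labelled T. Replicates 1 and 2 differed from each other by a factor of 1.02 in CK and 1.08 in T. Its neighbour in ID order, Zm00001d048852, stood at 0.597 and 0.644 times.

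The other 3 copies were also lower in replicate 3, by less. Zm00001d048848 stood at 0.814 times in the libraries labelled CK and 0.698 times in those labelled T, Zm00001d048849 at 0.831 times in both, and Zm00001d048847 at 0.910 and 0.891 times. In all 5 genes replicate 3 lay outside the range of replicates 1 and 2 on the same side in both groups, which held for 31.4% of all genes tested. With quantile normalization, which replaces each value by that of its rank, Zm00001d048847 had a ratio of 1.00 in CK and 1.11 in T.

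Copy by copy, the differences nearly balanced on deposited FPKM. In the libraries labelled CK, Zm00001d048851 was higher by 26601 FPKM in replicate 3, and the other 4 copies together differed by -22713 FPKM, which is 85.4% of that amount. In the libraries labelled T the same figures were 27673 FPKM, -25522 FPKM and 92.2%. Zm00001d048852 made up 39.7% of the lower amount in CK and 31.9% in T, Zm00001d048849 30.9% and 26.4%, Zm00001d048848 24.6% and 36.5%, and Zm00001d048847 4.68% and 5.11%. The cluster sum of replicate 3 differed from the mean of replicates 1 and 2 by 2.75% in CK and 1.55% in T. In T this is 2152 FPKM, less than the 5009.9 FPKM between replicates 1 and 2, and in CK it is 3888 FPKM, more than the 1003 FPKM between them. The cluster sum of replicate 3 was further from that mean under each of the 3 rescalings. With median-ratio rescaling, quantile normalization and the sum without the 20 most abundant genes it stood at 1.06, 1.04 and 1.08 times in CK. In T it stood at 1.02, 1.06 and 1.06 times.

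**Figure D3:**
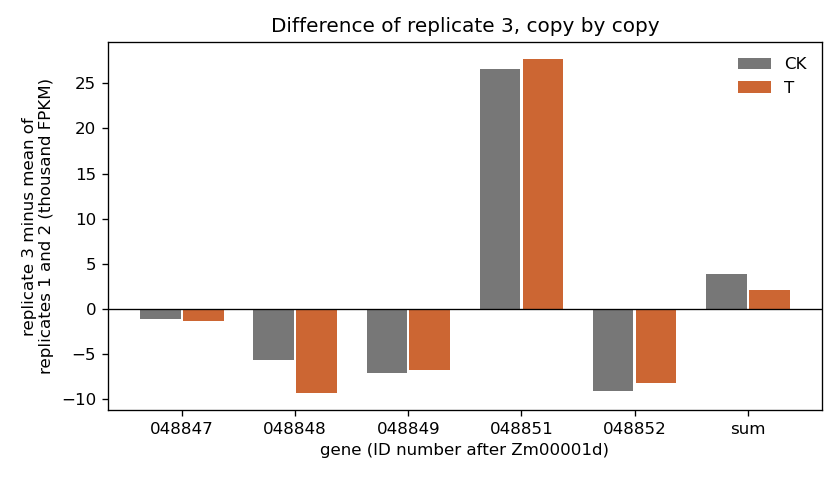
Replicate 3 minus the mean of replicates 1 and 2, in units of 1000 FPKM (vertical axis), for each cluster gene and for their sum, in the libraries labelled CK (grey) and T (orange). Zm00001d048851 is higher by 26601 and 27673 FPKM, the other 4 genes are lower, and the sums differ by 3888 and 2152 FPKM.

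FPKM divides by gene length, and the lengths of the copies are not given, so a balance in FPKM is a balance in fragments to the extent that the copies are of similar length. The tables hold 1 value per gene and no read placements. Whether fragments of closely related copies were assigned differently in replicate 3 was not tested.

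The same shift is seen in the shares. Zm00001d048851 held 24.9%, 25.2% and 42.7% of the cluster sum in CK replicates 1 to 3, and 23.5%, 24.4% and 43.2% in T replicates 1 to 3. Zm00001d048849 held 29.6%, 29.2% and 23.7% in CK, and 28.7%, 28.8% and 23.6% in T. The order of the highest 2 copies was therefore exchanged in replicate 3. The ratio of Zm00001d048851 to Zm00001d048852 was 1.59, 1.56 and 4.62 in CK, and 1.38, 1.52 and 4.13 in T. The share of Zm00001d048847 was steadier, between 7.45% and 8.61% over the 6 libraries.

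**Figure D4:**
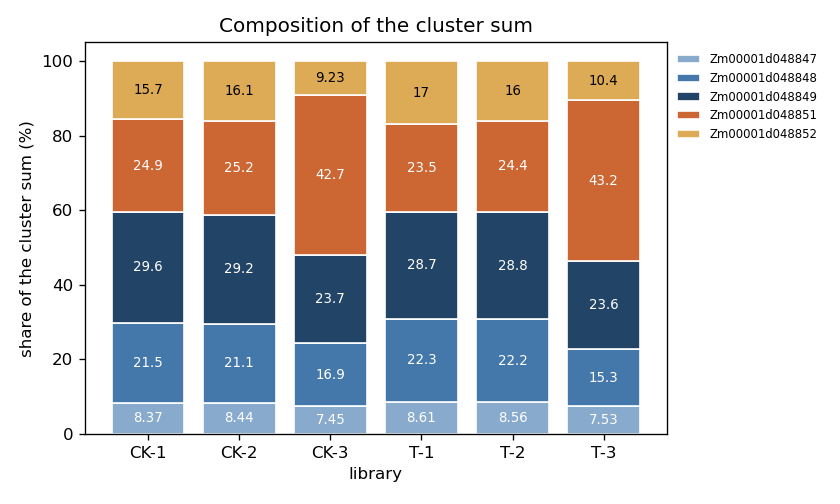
Share of each gene in the cluster sum, in percent (vertical axis), as stacked bars for the 6 libraries; the numbers in the bars are the shares. Zm00001d048851 takes 42.7% and 43.2% in replicate 3 of the libraries labelled CK and T, and between 23.5% and 25.2% in the other 4 libraries.

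A very low gene inside the cluster varied the same way. Zm00001d048850, between Zm00001d048849 and Zm00001d048851 in ID order, stood at 8.29, 10.7 and 28.03 FPKM in CK replicates 1 to 3 and at 6.27, 10.5 and 23.6 FPKM in T replicates 1 to 3. Replicate 3 was 2.95 and 2.82 times the mean of the other 2, a larger ratio than that of Zm00001d048851 next to it. The groups overlapped, with a log2 fold change of -0.21 and an interval from -1.37 to 0.96 (limma, adjusted p = 0.810).

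The other tested ID neighbours had ratios nearer to 1. Over the 6 that averaged 1 FPKM or more, the ratio of replicate 3 ranged from 0.764 for Zm00001d048840 to 1.48 for Zm00001d048842 in CK, and from 0.863 for Zm00001d048841 to 1.27 for Zm00001d048840 in T. Of the 7 tested neighbours outside the cluster, 2 were called lower in the libraries labelled T and 0 higher, beside 16.2% and 2.88% of all genes tested. Zm00001d048843 fell from 4.07, 3.30 and 2.83 FPKM to 1.53, 1.60 and 1.61 FPKM (limma, adjusted p = 0.00670), and it also passed under the 3 rescalings. Zm00001d048857 passed on deposited FPKM (log2 fold change -0.29, limma adjusted p = 0.0388) and under none of the 3 rescalings.

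Among all genes tested, 2.08% had replicate 3 at least 1.5-fold from the mean of replicates 1 and 2, the same way in both groups, and 2 of the 5 cluster genes did. The factor of 1.5 was chosen after the values were seen, and the values of replicate 3 helped to choose these 2 genes. Their count and the ranks below therefore repeat that choice and are not read as an enrichment. Among the 69 genes averaging 1000 FPKM or more it was 6, or 8.7%. Zm00001d048851 had the second highest ratio of these 69 and Zm00001d048852 the third lowest. Of the cluster genes, Zm00001d048852 was the one just inside the factor on the low side and Zm00001d048848, the sixth lowest, the next outside it. With quantile normalization Zm00001d048852 stood at 0.698 times in CK and 0.751 times in T, short of the factor in both. On the sum without the 20 most abundant genes it stood at 0.629 and 0.670 times, short of the factor in T. The share of all genes was not computed in those settings. Over the 64 abundant genes outside the cluster, the median ratio was 0.938 in CK and 0.951 in T.

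The other 4 of the 6 genes were Zm00001d048807 on the high side and Zm00001d048813, Zm00001d048818 and Zm00001d019162 on the low side. Zm00001d048807 stood at 1.80 and 1.91 times and Zm00001d048813 at 0.547 and 0.501 times, and both lie in the second run. That run thus also held a copy that was higher and a copy that was lower in replicate 3. Its sum was 9.03% higher in CK replicate 3 and 6.10% higher in T replicate 3, beside 2.75% and 1.55% for the cluster.

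**Figure D5:**
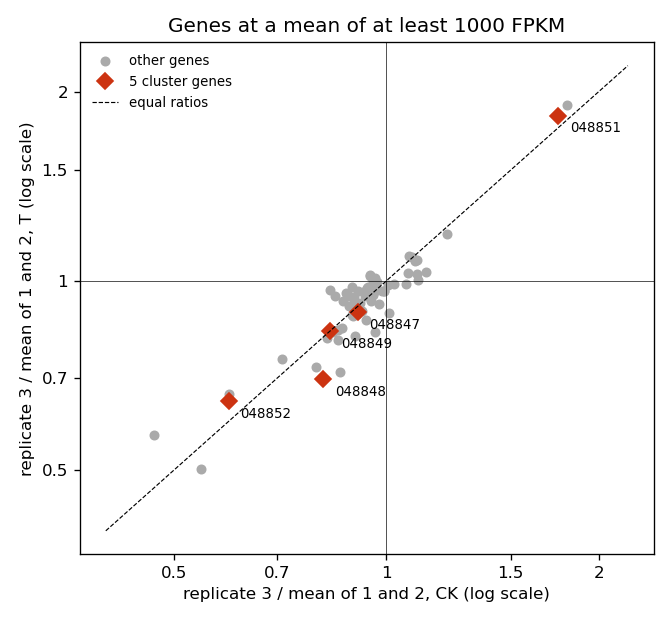
Replicate 3 over the mean of replicates 1 and 2 in the libraries labelled CK (horizontal, log scale) and T (vertical, log scale) for the 69 genes averaging 1000 FPKM or more; red diamonds are the 5 cluster genes, labelled by ID number, and the dashed line marks equal ratios. Zm00001d048851 is at 1.75 and 1.83, Zm00001d048852 at 0.597 and 0.644, and the other 3 cluster genes lie below 1 on both axes.

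Likeness was measured over the 6 libraries as the mean absolute difference between centred log2(FPKM + 1) profiles, among the 687 genes averaging 100 FPKM or more, and is given without a test. The gene most like Zm00001d048851 was Zm00001d048159, at a distance of 0.13, where the mean absolute deviation of Zm00001d048851 itself was 0.37. Zm00001d048159 stood at 196, 208 and 279 FPKM in the libraries labelled CK and at 189, 204 and 304 FPKM in those labelled T, so its replicate 3 was higher by a smaller factor. The mirrored profile of Zm00001d048851 was closest to Zm00001d053636, at 0.051, then to Zm00001d048852, at 0.074, and to Zm00001d048813, at 0.084. Zm00001d048852 in turn was closest to the mirrored profile of Zm00001d048851, and its nearest direct match was Zm00001d036565, at 0.092.

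For Zm00001d048848 the nearest gene was Zm00001d020591, at 0.040. This gene was abundant as well, at 15026, 15216 and 12016 FPKM in the libraries labelled CK and at 14386, 14275 and 10433 FPKM in those labelled T. The next were Zm00001d037884 and Zm00001d037886, at 0.056 each, which have identical values in all 6 libraries. Zm00001d048849 was nearest to Zm00001d051635, at 0.030, and Zm00001d048847 to Zm00001d046929, at 0.024. The mirrored profile of Zm00001d048847 was nearest to Zm00001d048812 of the second run, at 0.022. None of these IDs could be matched to a name.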

How the data were processed

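Messenger RNA libraries of 3 kernel samples labelled T and 3 labelled CK were compared; titles gave groups and replicate numbers. FPKM values, rounded to 2 decimals, were deposited by the authors in a table for each library, per the file headers. The submitters' processing notes list DESeq2, with no version or role; an aligner, counting tool, build and annotation were not given in the sources used here. Because the number of fragments is unknown, no counting interval was computed.

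The groups were compared on log2(FPKM + 1) with limma 3.58.1 in R 4.3.3 (mean trend, 2-sided, Benjamini-Hochberg adjustment over the 20514 genes averaging 1 FPKM or more, threshold 0.05), and sums, shares and ratios with exact permutation tests of 3 against 3 libraries (scipy 1.17.1). Log2 fold changes are on that scale. The fit was tested on simulated data with independent noise in each library. The shared deviation of replicate 3 was not simulated, so that test does not cover it. Same-numbered libraries deviated together across genes (correlations 0.13, 0.12 and 0.33), each above 0.1. The main limma fit and the exact permutation tests were nevertheless unpaired. Pairing by number entered only through the replicate block, the sign-flip tests and the differences within replicate numbers. CK 2 with T 1 also reached 0.105, and no label states the pairing. Named genes were the 5 members, IDs Zm00001d048840 to Zm00001d048860, IDs Zm00001d048806 to Zm00001d048817 and, for each member, the 3 nearest profiles and the 3 nearest mirrored ones. Members and lists were chosen with earlier results of these data known. Alternatives covered the pseudocount, the filter, 3 rescalings, the mean trend, the threshold, the replicate block and left-out libraries.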

Additional observations from a re-analysis of the deposited data

How the results depend on the processing

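All alternatives were listed with earlier results of these data known. The limma count of cluster genes called stayed at 0 of 5 under all 17, and adjusted p of the 5 genes ranged from 0.0767 to 0.992 over their 16 alternatives each. Over all genes, 3907 were called, 2308 to 3291 when 1 library was left out (2308 without CK 1, 2311 without CK 2 and 2503 without T 2), 1591 at an adjusted p under 0.01 and 4469 with the replicate block.

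Several small log2 fold changes changed sign. With median-ratio rescaling those of Zm00001d048847, Zm00001d048848, Zm00001d048849 and Zm00001d048851 were 0.14, 0.11, 0.095 and 0.081, and after rescaling to the FPKM outside the top 20 genes 0.16, 0.13, 0.11 and 0.099. Zm00001d048852 was at -0.073 with quantile normalization. With replicate 3 left out of both groups, Zm00001d048847 was at 0.0058 and Zm00001d048848 at 0.035. Leaving out single libraries, which unbalances replicate 3 between the groups or changes its weight, gave -0.050 to 0.051 for Zm00001d048847, -0.14 to 0.13 for Zm00001d048848, -0.14 to 0.034 for Zm00001d048849, -0.36 to 0.20 for Zm00001d048851 and -0.18 to 0.28 for Zm00001d048852. Their shares of the cluster sum then differed, T minus CK, by -0.17 to 0.50, -1.42 to 2.37, -2.35 to 1.27, -6.97 to 5.34 and -1.39 to 2.83 percentage points. The log2 ratio of the summed FPKM was 0.12 with median-ratio rescaling, 0.14 after rescaling to the FPKM outside the top 20 and 0.098 with IDs Zm00001d048806 to Zm00001d048817 added; with the replicate block it was -0.030 (exact sign-flip p = 0.25, the smallest possible), and the block changed no call. The sum kept its direction under the other 9 alternatives, at -0.13 with quantile normalization (exact permutation p = 0.1) and from -0.040 (without T 2) to -0.014 (without T 1) when 1 library was left out.

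The ratio of replicate 3 for Zm00001d048851 in CK was 1.81 with median-ratio rescaling, 1.59 with quantile normalization and 1.85 after rescaling to the FPKM outside the top 20; in T it lay between 1.77 and 1.91. For the cluster sum these were 1.06, 1.04 and 1.08 in CK, and in T 1.059 with quantile normalization and 1.057 after rescaling to the FPKM outside the top 20. The unknown number of fragments limits values of a few FPKM, such as those of Zm00001d048850.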
